A study of Mus musculus with 32 samples.

Results

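Donor CD8 T cells recovered from allogeneic mice were compared with donor CD8 T cells recovered from syngeneic mice. The comparison used 7 of the 31 RNA libraries of the series, chosen by their labels and not by any measured value. There were 4 allogeneic libraries (JL019-1, JL019-2, JL027-1 and JL027-2) and 3 syngeneic libraries (JL019-1, JL019-2 and JL027), and lists of values below follow these orders. Cells were sorted from spleen and lymph nodes. Donors were C57Bl6 mice. The allogeneic hosts were Balb/c mice, a major histocompatibility mismatch that produces graft-versus-host disease (GVHD), and they received no Treg treatment. The syngeneic hosts were untreated controls in which donor and host match. The sample titles place both groups at day 6, while the series text speaks of 8 days. The age and sex of the mice, the conditioning of the hosts, the sorting gate and the number of animals behind a library are not given in the sources used here. CD4 libraries from hosts of the same 2 groups and CD8 libraries taken before transplantation (day 0, 2 libraries) served for comparison.

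CD8 T cells are the lymphocytes that kill target cells after their T-cell receptor (TCR) recognises peptide on MHC class I. After priming they leave the naive programme of lymph node recirculation, divide, and make granzymes, perforin and interferon-gamma, and inhibitory receptors such as PD-1 appear on activated and on persistently stimulated cells. In a syngeneic lymphopenic host, transferred T cells can also divide and acquire effector features without meeting alloantigen, so the syngeneic group is not a group of resting cells by definition.

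The RNA values are estimated counts scaled between libraries by the authors, here called scaled counts, and the read depth behind them is unknown. Log2 changes are differences of mean log2(scaled count + 1), which understates the change of low genes. In the lineage check, both CD8 chains were high and Cd4 was low in all 7 libraries, though the CD8 chains were lower in allogeneic cells. Cd8a, the alpha chain of the CD8 co-receptor, stood at 14160, 16660, 19950 and 16840 scaled counts in the allogeneic libraries and at 42080, 33820 and 61110 in the syngeneic ones. The groups did not overlap, yet the change missed the threshold (log2 change -1.40, SE 0.66, limma adjusted p = 0.139). Without the CD4 syngeneic library JL019-2 in the shared estimate of the spread, the same change passed it (adjusted p = 0.00467). Cd8b1, the beta chain, was at 40800 to 61720 against 61580 to 122900 (log2 change -0.82, SE 0.35, limma adjusted p = 0.0949). Its change also passed without that CD4 library (adjusted p = 0.0308). Cd4 was low in both groups, at 23.9 to 59.6 scaled counts in allogeneic and 17.7 to 53.9 in syngeneic CD8 libraries. It was at 16710 to 21480 in the CD4 allogeneic libraries and at 1659 to 16530 in the CD4 syngeneic ones.

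The CD4 syngeneic library JL019-2 stood apart. Its Cd4 was at 1659 scaled counts, against 16530 and 14580 in the other CD4 syngeneic libraries, and its Cd8a at 1956, against 58.2 and 114. Its lineage genes thus did not match its label well. Its summed myeloid markers reached 980000 scaled counts, against 21800 in the lowest CD4 syngeneic library. Differences between CD8 and CD4 cells are therefore also given without it. In the CD8 libraries, 14 myeloid markers summed to 9740 to 12200 (allogeneic) and 15900 to 21800 (syngeneic), with 2 higher and 5 lower. For 12 B cell markers the sums were 1220 to 1380 and 3610 to 4280, or 822 to 1110 and 1200 to 2190 without Cd22. For 11 erythroid and platelet markers they were 655 to 15400 and 3570 to 12100. Stromal markers (8) went the other way, from 963 to 1550 in syngeneic to 2470 to 2950 in allogeneic libraries, with Pecam1 and Krt18 called higher and Epcam at 0 in every syngeneic library. The day 0 CD8 libraries stood above both groups for B cell markers (20500 to 32200) and for erythroid and platelet markers (47000 to 56400). For myeloid markers they stood below both (6130 to 8170). Comparisons with day 0 below carry these differences. The part of these cell types in the results was not tested. No marker of the myeloid, B cell and erythroid lists was at 0 in every library of a group. The prefixes JL019 and JL027 name experiments in the deposited TCR tables, and Y-linked RNA followed them after transplantation: 4 Y-linked genes summed to 101 to 157 in JL019 and 5015 to 7008 in JL027 CD8 libraries. At day 0 both CD8 libraries were low, at 646 and 179. Both experiments contributed to both groups. Nothing in the labels says that replicates came from separate animals, so p-values measure the spread between these samples, which may be technical. In bulk RNA, fewer cells of a type and less RNA per cell cannot be told apart.

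Of 16741 genes, 3524 (21.1%) differed between allogeneic and syngeneic CD8 cells at a limma adjusted p under 0.05, and such genes are here said to be called. The directions were nearly equal, with 1741 genes higher (10.4%) and 1783 lower (10.7%) in allogeneic cells. These shares are the background for the count of every gene list in CD8 cells below. The median log2 change over all genes was 0.02. A log2 change beyond 4 in either direction was seen for 222 called genes, 156 upward and 66 downward. All 4 allogeneic libraries lay outside the range of the 3 syngeneic ones for 5076 genes (30.3%), 2497 upward and 2579 downward. Changes were also estimated within each experiment, with the spread still taken from all 31 libraries. Within JL019 (2 against 2 libraries) 1380 genes were called, 787 higher and 593 lower. Within JL027 (2 against 1) the single syngeneic library has no spread of its own. Every fit within 1 experiment or without 1 CD8 library called fewer than 3524 genes, so list counts from these fits have smaller totals behind them. Without the syngeneic library JL027 the count was 2372, with 1305 higher and 1067 lower. Among the genes named below, Cblb, Cd27, Ctsw, Dtl, Lamp1, Lat, Mcm10, S100a9 and Tnfrsf14 lost their call without that library, but not without any other single CD8 library. With the replicate label fitted as a block, 15 genes lost their call, among them Cd27, Cd86, Ctsw, Dtl, Gbp3, Lat, Mcm10 and S100a8.

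**Figure D1:**
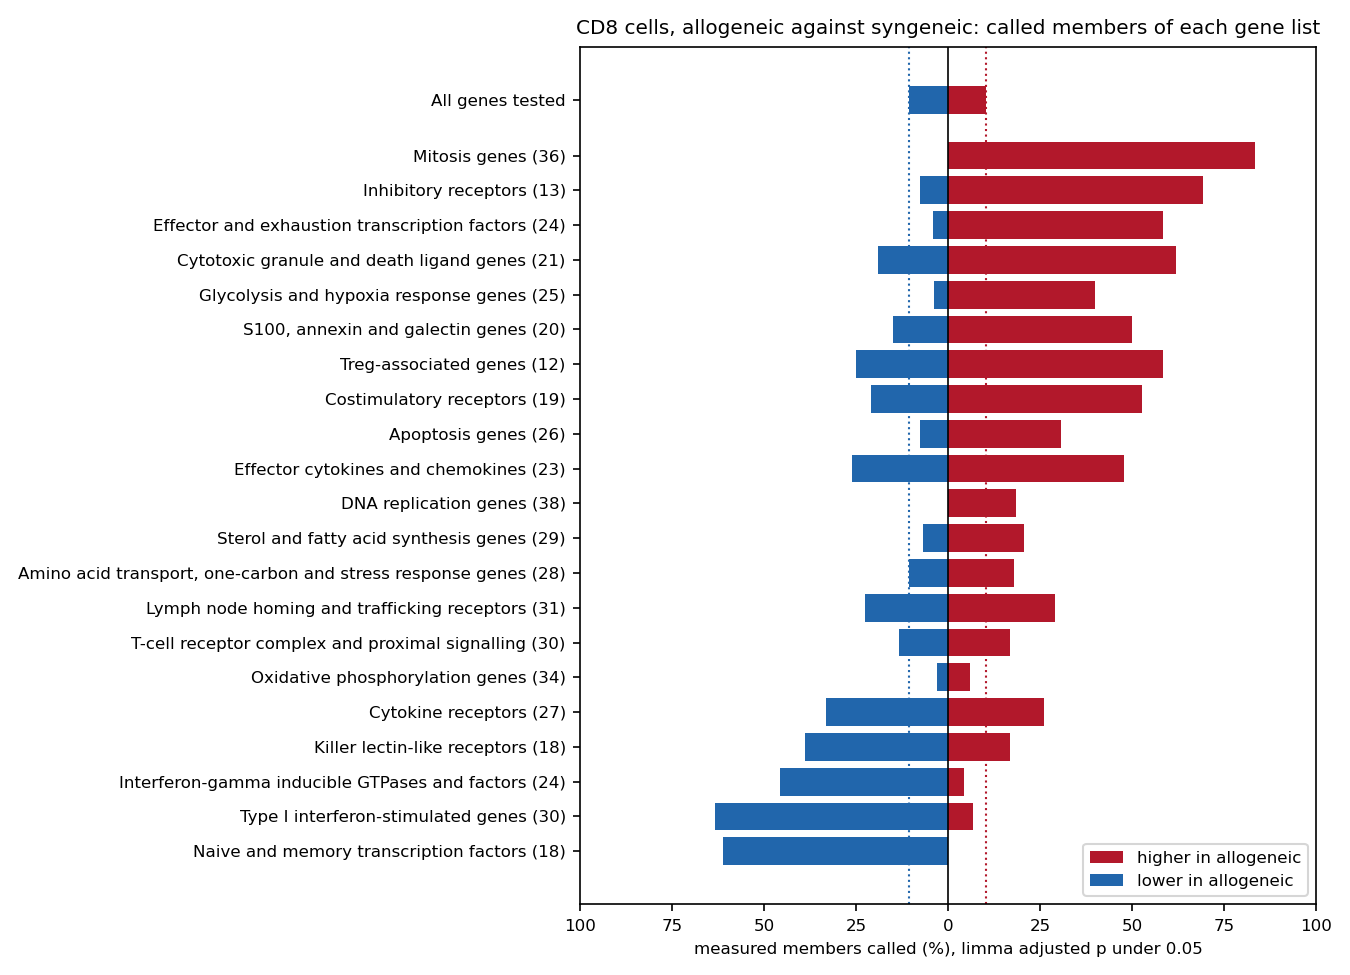
Share of the measured members of 21 gene lists called in CD8 cells, with the number of measured members in parentheses; red bars to the right are higher and blue bars to the left lower in allogeneic cells (%), and dotted lines mark the shares over all genes tested. Mitosis genes lie furthest to the right (30 of 36 higher) and type I interferon-stimulated genes furthest to the left (19 of 30 lower).

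Inhibitory receptors were among the genes that differed most. Of 13 measured members, 9 were higher and 1 was lower in allogeneic cells, against 10.4% and 10.7% of all genes, with a median log2 change of 2.49. Pdcd1, which encodes PD-1, stood at 22470, 23500, 19000 and 26580 scaled counts in the allogeneic libraries and at 143, 135 and 190.1 in the syngeneic ones. The lowest allogeneic library lay far above the highest syngeneic one (147-fold in group means, log2 change 7.19, SE 0.30, limma adjusted p = 1.82e-15). The day 0 libraries, at 131 and 147, were close to the syngeneic ones. Havcr2 (TIM-3, a receptor of terminally differentiated T cells) was at 7813, 8809, 12730 and 9538 against 51.7, 43.5 and 108. No allogeneic library came near the syngeneic range (log2 change 7.24, SE 0.31, adjusted p = 2.31e-15).

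Ctla4, the CD28 family receptor that competes for CD80 and CD86, read 17150, 11920, 18090 and 16970 against 71.0, 74.4 and 97.5 scaled counts. It was 198-fold higher in group means (log2 change 7.61, SE 0.44, adjusted p = 7.53e-13). Lag3, which binds MHC class II, was at 836, 1010, 400.1 and 855 against 16.8, 14.8 and 15.9. Allogeneic JL027-1 was the lowest library of its group, yet well clear of the syngeneic range (log2 change 5.45, SE 0.34, adjusted p = 3.11e-12). Tigit, a receptor for nectin-like ligands, rose from 105 to 165 in syngeneic to 3092 to 4358 in allogeneic libraries (log2 change 4.92, SE 0.30, adjusted p = 1.59e-12). Cd244a, Entpd1, Cd200r1 and Pdcd1lg2 were the other members that rose. Lair1, a collagen receptor, was the one member that fell (log2 change -0.67, SE 0.23, adjusted p = 0.0349). Its call was lost under median centring, under quantile normalisation and without any one of 5 CD8 libraries. It was also lost with the replicate label as a block and when only the groups compared were fitted. Cd160, Btla and Cd274 did not pass the test. Leaving out any one CD8 library gave 8 to 10 members higher.

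**Figure D2:**
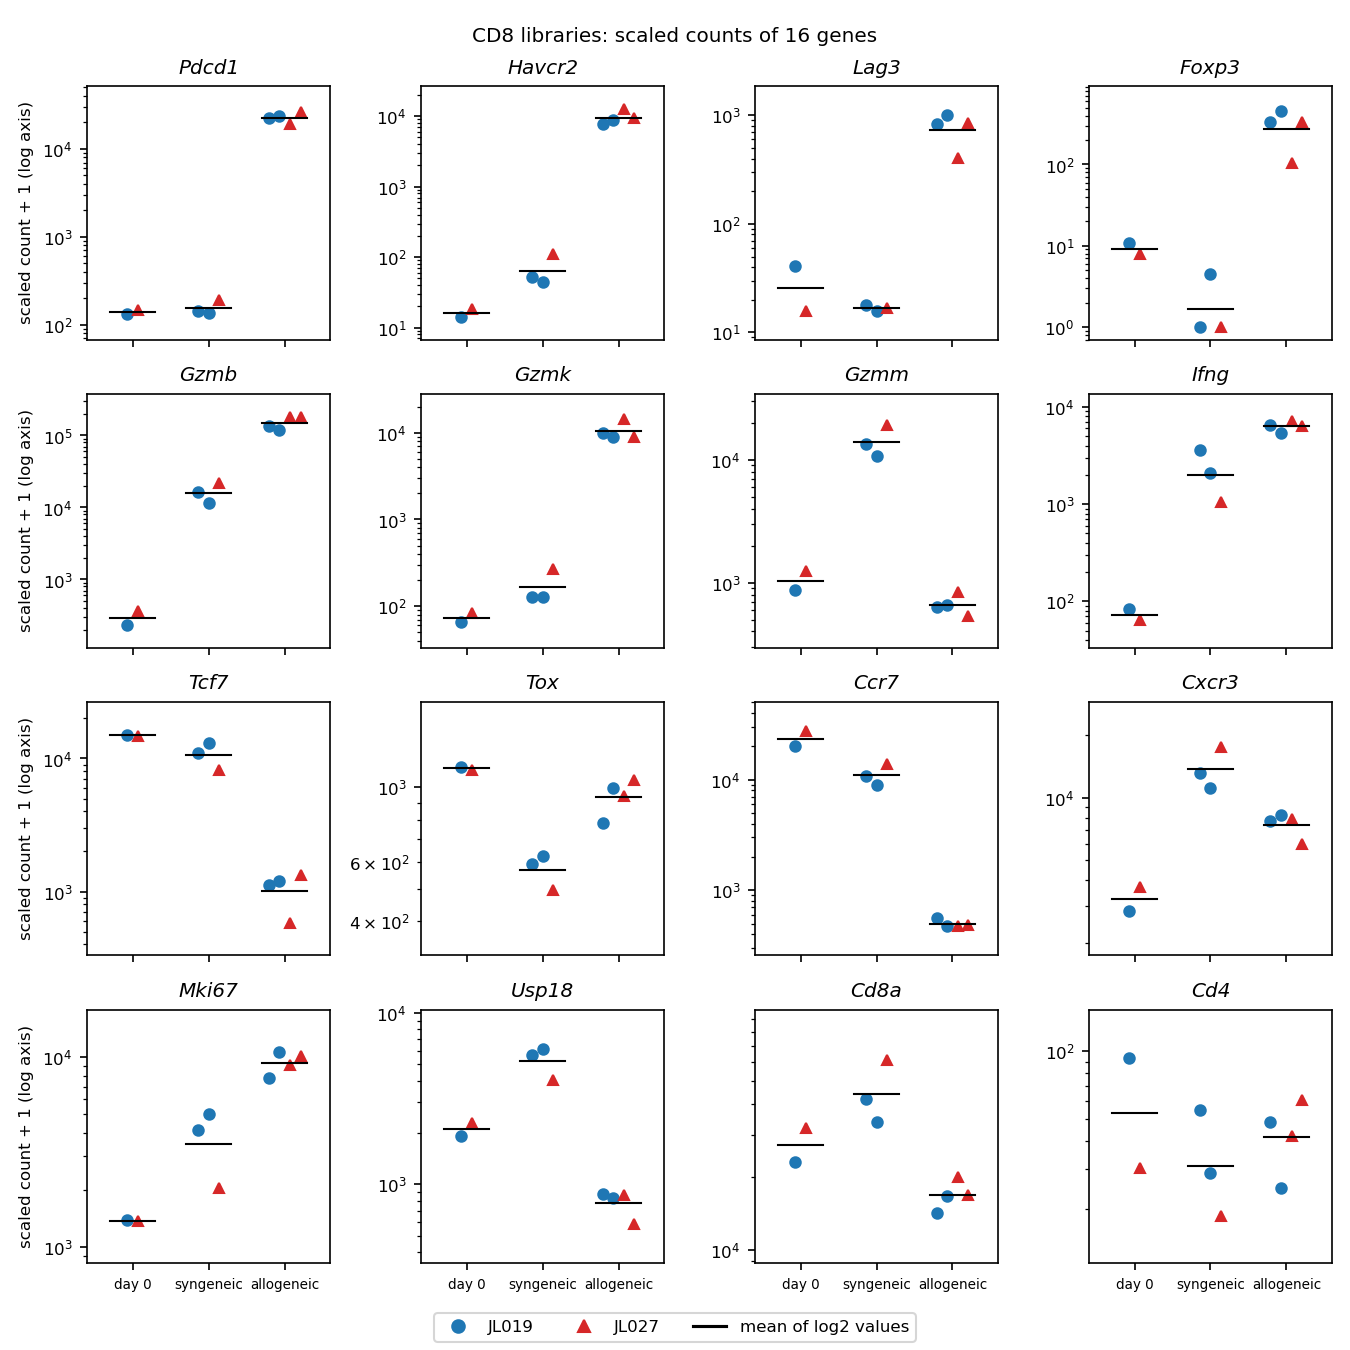
Scaled counts plus 1 (log axis) of 16 genes in each CD8 library at day 0, in syngeneic and in allogeneic hosts; circles are JL019 libraries, triangles JL027 libraries and bars the mean of the log2 values of a group. Pdcd1, Havcr2, Lag3, Foxp3 and Gzmk are high in the allogeneic libraries alone, while Gzmm and Cxcr3 are highest in the syngeneic ones.

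Cytotoxic genes split into members that rose and members that fell. Of 21 measured genes of granules and death ligands, 13 were higher and 4 lower, with a median log2 change of 2.14. Gzmb, the granzyme that cleaves caspases, stood at 134200, 119500, 179700 and 180800 in allogeneic and 16200, 11540 and 22000 in syngeneic libraries. All syngeneic values lay below all allogeneic ones (9.26-fold in group means, log2 change 3.24, SE 0.27, adjusted p = 5.4e-10), and at day 0 it was at 236 and 363. Gzmk, a tryptase-like granzyme, changed more: 10040, 8945, 14270 and 8991 against 128, 128 and 269 scaled counts. Its syngeneic values were near those of day 0, 64.6 and 81.7 (log2 change 5.98, SE 0.31, adjusted p = 9.94e-14). Gzmf, one of the granzymes clustered beside Gzmb, was at 171 to 390.0 in allogeneic libraries and at 0, 1.67 and 2.32 in syngeneic ones (log2 change 6.76, SE 0.54, adjusted p = 3.29e-10).

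Prf1, which encodes the pore-forming perforin, differed less than the granzymes. It was at 12840, 13880, 10280 and 15100 against 4932, 4291 and 4295 scaled counts (2.89-fold, log2 change 1.52, SE 0.28, adjusted p = 0.000212). The granzyme inhibitors Serpinb9 and Serpinb6b also rose, with log2 changes of 3.34 (SE 0.26) and 3.57 (SE 0.23). Gzmm went the other way. This granzyme, found in innate-like and cytotoxic lymphocytes, was at 629, 655, 838 and 530 in allogeneic libraries and at 13340, 10710 and 19170 in syngeneic ones. It was 21.7-fold lower in group means (log2 change -4.42, SE 0.50, adjusted p = 1.35e-07), and the day 0 values of 871 and 1239 were near the allogeneic ones. Ctsw, Tnfsf10 (TRAIL) and Lamp1 fell by 0.97, 0.80 and 0.63 on the log2 scale. Without the syngeneic library JL027 only 2 members were lower.

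Of 23 effector cytokines and chemokines, 11 were higher and 6 lower (median log2 change 1.17). Ifng, which encodes interferon-gamma, stood at 6530, 5417, 7143 and 6275 scaled counts against 3581, 2067 and 1042. The groups did not overlap, and the syngeneic libraries were already far above the day 0 values of 81.6 and 62.6 (log2 change 1.67, SE 0.32, adjusted p = 0.000289). Il10, an immune-regulatory cytokine, was at 187 to 252 against 1.17 to 6.68 (log2 change 5.76, SE 0.47, adjusted p = 3.55e-10). Il21, usually made by follicular helper CD4 cells, was at 63.9 to 159.5 against 0 to 0.85 (log2 change 6.22, SE 0.60, adjusted p = 8.92e-09). Ccl1 and Il4 rose as well, with log2 changes of 3.46 (SE 0.52) and 2.88 (SE 0.46), Il4 from levels of at most 2.59 scaled counts.

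Tnf and Lta, 2 neighbouring members of the tumour necrosis factor family, fell. Tnf was at 243, 243, 172 and 223 in allogeneic libraries and at 1455, 1104 and 756 in syngeneic ones (log2 change -2.29, SE 0.32, adjusted p = 4.4e-06). Lta was at 80.3 to 92.8 against 486 to 887 (log2 change -2.85, SE 0.30, adjusted p = 4.58e-08). Both groups were clear of each other for each of these genes. Xcl1, a chemokine that attracts cross-presenting dendritic cells, fell by 2.85 (SE 0.50, adjusted p = 9.47e-05), and Cxcl10, an interferon-inducible ligand of CXCR3, by 2.51 (SE 0.51, adjusted p = 0.000535). Il2, the T-cell growth factor, was at 2.49 to 4.29 against 2.51 to 22.1 scaled counts and did not pass the test (log2 change -0.79, SE 0.57, adjusted p = 0.361).

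Transcription factors were counted in a list of effector and exhaustion factors and a list of naive and memory factors. Of 24 effector and exhaustion factors, 14 were higher and 1 was lower (median log2 change 1.28). Prdm1, which encodes the effector regulator Blimp-1, was at 3111, 2972, 2326 and 3110 scaled counts against 142, 171 and 84.1. No library was near the other group (log2 change 4.48, SE 0.27, adjusted p = 1.78e-12). Ahr (the aryl hydrocarbon receptor), Bhlhe40 and Maf rose with log2 changes of 4.62 (SE 0.34), 3.78 (SE 0.36) and 2.59 (SE 0.26). Eomes, a T-box factor of memory and effector CD8 cells, was the member that fell: 1189, 1192, 857 and 1151 against 4985, 5311 and 4457. Its allogeneic values sat near those of day 0, 1006 and 1253 (log2 change -2.17, SE 0.26, adjusted p = 4.78e-07).

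Tox, the factor associated with T-cell exhaustion, was at 784, 992, 945 and 1049 in allogeneic libraries and at 591, 624 and 494 in syngeneic ones. The groups did not overlap, but the change missed the threshold (log2 change 0.72, SE 0.34, adjusted p = 0.135) and passed it without the CD4 syngeneic library JL019-2 (adjusted p = 0.0132). Both day 0 libraries, at 1147 and 1128, were above all 7 of these libraries. Tbx21, Irf8, Nfatc1, Nr4a1, Nr4a3 and Runx3 were among the 9 members that did not pass.

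None of 18 naive and memory factors was higher and 11 were lower (median log2 change -0.95). Tcf7, which encodes TCF-1 of naive and stem-like T cells, stood at 1115, 1191, 583 and 1324 scaled counts against 11000, 13000 and 8215. The groups did not overlap, and the day 0 libraries stood higher still at 15100 and 14870 (10.2-fold lower in allogeneic, log2 change -3.39, SE 0.49, adjusted p = 8.49e-06). Id3, an inhibitor of E proteins, was at 99.0, 92.8, 98.4 and 113 against 3130, 3273 and 4945 (log2 change -5.19, SE 0.30, adjusted p = 8.47e-13). Pou2af1 and Foxp1 fell by 3.37 (SE 0.51) and 1.26 (SE 0.18). Lef1, the partner of TCF-1, did not pass the test, with a log2 change of -0.47 (SE 0.29, adjusted p = 0.273). Within JL019, 6 members were lower, where 593 of all genes were called lower.

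Of 31 homing and trafficking receptors, 9 were higher and 7 lower (median log2 change 0.20). Ccr7, the receptor for the lymph node chemokines CCL19 and CCL21, was at 471 to 561 against 8998 to 13760 (log2 change -4.47, SE 0.42, adjusted p = 4.83e-09), with no overlap between groups. Cxcr5, the follicle homing receptor, fell by 3.88 (SE 0.52). Itgae, the CD103 integrin chain that binds epithelial E-cadherin, was at 51.9 to 89.3 against 278 to 485 (log2 change -2.46, SE 0.37, adjusted p = 1.55e-05), and both were below the day 0 values of 2337 and 3212.

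Cxcr3, the receptor for interferon-induced chemokines, was lower in allogeneic cells: 7683, 8218, 7914 and 5979 against 13130, 11100 and 17550 scaled counts. The groups did not overlap (log2 change -0.89, SE 0.21, adjusted p = 0.00268), but within JL019 alone the change was -0.60 and not called (adjusted p = 0.231). Cxcr6, a receptor of liver-homing and tissue-resident T cells, was higher: 24420, 23240, 36820 and 22740 against 11940, 10310 and 15180 (log2 change 1.09, SE 0.22, adjusted p = 0.00046). Itga4, the alpha4 integrin chain of gut and endothelial homing, was at 7287 to 10450 against 633 to 818 (log2 change 3.64, SE 0.27, adjusted p = 6.77e-11). For Itga4 it was the syngeneic group that stood below the day 0 values of 5127 and 6245. Itga1, Ccr8 and Cx3cr1 rose with log2 changes of 4.47 (SE 0.41), 5.22 (SE 0.42) and 3.04 (SE 0.45).

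Among 19 costimulatory receptors and ligands, 10 were higher and 4 lower (median log2 change 0.86). Tnfrsf4 (OX40) was at 3885, 4072, 6099 and 5661 scaled counts against 31.1, 74.5 and 49.9 (log2 change 6.60, SE 0.35, adjusted p = 1.45e-13). Tnfrsf9 (4-1BB) was at 14530 to 19820 against 1770 to 2430 (log2 change 3.02, SE 0.28, adjusted p = 3.53e-09). Both receptors are induced by TCR stimulation, and neither overlapped between groups. The ligands Cd70 and Cd80 were at 68.1 to 86.4 and 30.5 to 114 in allogeneic libraries, against at most 1.16 and 2.52 in syngeneic ones. Tnfsf8 (CD30 ligand) fell by 2.49 (SE 0.30), and Cd27, Tnfrsf14 and Cd86 fell by 0.89, 0.87 and 0.74. Cd86 lost its call without any one of 5 CD8 libraries (limma adjusted p = 0.0532 to 0.127) and under quantile normalisation. Without the syngeneic library JL027 only 1 member was lower.

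Of 27 cytokine receptors, 7 were higher and 9 lower (median log2 change 0.19). Il2ra, the high-affinity chain of the interleukin-2 receptor, was at 4878, 6270, 7084 and 7397 against 258, 303 and 262 scaled counts (log2 change 4.53, SE 0.35, adjusted p = 1.76e-10). Il1rl1, the interleukin-33 receptor ST2, was at 1205 to 1614 against 19.5 to 60.1 (log2 change 5.36, SE 0.38, adjusted p = 2.71e-11). The 2 chains of the interferon-gamma receptor went in opposite directions. Ifngr1 rose by 1.65 (SE 0.19, adjusted p = 1.87e-07), while Ifngr2, the signalling chain, fell by 2.78 (SE 0.37, adjusted p = 2.54e-06) to 22.3 to 53.0 scaled counts. Ifnar2, a chain of the type I interferon receptor, fell by 2.32 (SE 0.27), Il10rb by 1.76 (SE 0.16) and Il6ra by 4.93 (SE 0.40). Il7r, the interleukin-7 receptor of naive and memory cells, overlapped between groups at 3573 to 6712 against 3358 to 5957 (log2 change 0.31, SE 0.39, adjusted p = 0.632), and within JL027 its sign turned (-0.42). The count of lower members was 5 to 7 when any one CD8 library was left out.

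Killer lectin-like receptors, shared with natural killer (NK) cells, included members that rose and members that fell. Of 18 measured members, 3 were higher and 7 lower (median log2 change -1.16). Klrg1, a marker of effector CD8 cells, was at 2090, 2117, 3265 and 1748 scaled counts against 33.4, 17.6 and 67.8 (log2 change 5.99, SE 0.38, adjusted p = 4.72e-12). Klrk1 (NKG2D) and Klrc1 (NKG2A) rose by 2.80 (SE 0.47) and 1.45 (SE 0.27). The lower members were 6 Ly49 genes (Klra1, Klra3, Klra4, Klra6, Klra8 and Klra9) and Klre1. The Ly49 genes Klra5 and Klra7, and Klrb1c, Klrb1f, Klrc2, Klrc3, Klrd1 and Klri2, did not pass the test. Klra4 was at 1.96 to 2.57 against 352 to 695 (log2 change -7.09, SE 0.97, adjusted p = 3.47e-06). Klra8 was listed at 0 in every allogeneic library and at 72.2, 84.5 and 142 in the syngeneic ones. Ly49 genes are near-identical in sequence, so how the authors' counting split their reads is uncertain. The 7 NK and gamma-delta markers summed to 3110 to 3610 in allogeneic and 6060 to 6420 in syngeneic libraries. Of these markers 0 were called higher and 3 lower (Klra8, Eomes and Trdc), with a median log2 change of -1.5. Eomes carried much of the sums, and without it the other 6 summed to 1960 to 2550 and 1110 to 1610. The direction of the sum turned, while that of the called members did not. Klra8 was the marker at 0, and Ncr1, the defining NK receptor, was at 1.72 to 8.67 and 6.71 to 19.99. The part of NK cells in the Ly49 result was not tested.

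Of 30 genes of the TCR complex and its proximal signalling, 5 were higher and 4 lower (30.0% called against 21.1% of all genes, median log2 change -0.28). The CD3 chains, Lck and Zap70 did not pass the test. The phosphatase Ptpn22 rose by 1.16 (SE 0.28), the ubiquitin ligase Cblb by 2.00 (SE 0.53), the adaptor Sla by 0.84 (SE 0.21) and the phosphatase Dusp5 by 2.21 (SE 0.47), and Spry2 was the other member that rose. Ptpn6, which encodes the phosphatase SHP-1, fell by 1.09 (adjusted p = 3.92e-05). The adaptor Lat fell by 1.04 (SE 0.28), and Cd5, a negative regulator whose level tracks TCR signal in naive cells, by 1.20 (SE 0.31). Egr2, an early TCR response gene, was at 22.7 to 52.0 against 92.0 to 112 scaled counts and fell by 1.30 (SE 0.35, adjusted p = 0.00813). Within either experiment alone, 1 member was higher and 1 lower.

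More interferon-stimulated genes were lower than higher in allogeneic cells, 19 against 2 of 30 type I genes and 11 against 1 of 24 interferon-gamma genes. Type I interferon acts through the factor ISGF3 on interferon-stimulated response elements (ISRE), and interferon-gamma acts on gamma-activated sites (GAS). The bases upstream of 3 genes that fell are shown as examples of windows that hold these elements, taken here as GAAA and GAAA with any 2 bases between them for ISRE, and TTC and GAA with any 3 between them for GAS, and searched on both strands. Sequences are the 250 bases before the RefSeq start site on the gene's strand, 5′ to 3′, GRCm38.p6, with matches in capitals. Ifit3 lies at chr19:34583279-34583528 (plus strand), Socs1 at chr16:10785537-10785786 (minus strand) and Tgtp1 at chr11:48992247-48992496 (minus strand).
Ifit3: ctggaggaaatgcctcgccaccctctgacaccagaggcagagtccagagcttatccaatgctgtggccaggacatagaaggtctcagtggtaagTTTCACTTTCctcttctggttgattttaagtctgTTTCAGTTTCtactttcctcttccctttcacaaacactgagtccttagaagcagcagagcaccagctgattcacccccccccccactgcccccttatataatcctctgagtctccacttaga
Socs1: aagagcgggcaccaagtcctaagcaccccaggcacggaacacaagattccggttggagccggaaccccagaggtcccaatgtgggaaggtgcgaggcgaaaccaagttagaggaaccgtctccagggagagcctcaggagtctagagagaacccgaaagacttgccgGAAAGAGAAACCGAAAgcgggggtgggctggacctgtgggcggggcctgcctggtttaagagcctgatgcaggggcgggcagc
Tgtp1: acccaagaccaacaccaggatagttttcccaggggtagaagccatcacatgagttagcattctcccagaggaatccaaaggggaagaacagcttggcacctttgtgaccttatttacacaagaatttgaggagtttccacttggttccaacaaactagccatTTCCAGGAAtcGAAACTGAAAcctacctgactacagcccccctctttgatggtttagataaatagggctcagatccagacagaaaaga
Ifit3 has 2 ISRE matches, Socs1 has 2 that overlap, and Tgtp1 has 1 ISRE and 1 GAS match. The window of Oasl2, which also fell, has neither. Of 32851 such windows in the table, 2.98% held an ISRE match and 7.02% a GAS match. The table held windows for 22 of 30 genes of the type I list, 15 of 24 of the interferon-gamma list and 30 of 36 of the mitosis list, some with several starts. An ISRE match was present in 11 of 26 windows of the type I list (42.3%) and 10 of 17 of the interferon-gamma list (58.8%), and a GAS match in 8 of these 17 (47.1%). A match describes the letters only.

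Of 30 type I interferon-stimulated genes, 2 were higher and 19 lower (median log2 change -1.22). Usp18, which dampens type I interferon signalling, stood at 872, 831, 858 and 580.3 scaled counts against 5688, 6165 and 4046. The day 0 values, 1920 and 2280, lay between the groups (6.75-fold lower in allogeneic, log2 change -2.75, SE 0.21, adjusted p = 1.56e-10). Ifit3, an RNA-binding antiviral protein, was at 378 to 1001 against 2985 to 4741 (log2 change -2.47, SE 0.30, adjusted p = 4.81e-07). Rtp4 and Oasl2 fell by 2.05 (SE 0.24) and 2.49 (SE 0.30). Ly6a (Sca-1) and Ifih1 (the RNA sensor MDA5) were the 2 members that rose, by 1.75 (SE 0.25) and 1.79 (SE 0.39). Leaving out any one CD8 library gave 16 to 19 members lower, and within JL019 and JL027 there were 12 and 9.

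Interferon-gamma inducible genes were also mostly lower among those called, while Ifng itself was higher. Of 24 measured members, 1 was higher and 11 lower (median log2 change -0.93). Socs1, the inhibitor of JAK kinases, was at 589, 621, 419 and 755 against 2310, 2318 and 4944 scaled counts (log2 change -2.35, SE 0.29, adjusted p = 6.79e-07). Tgtp1, an immunity-related GTPase, was at 1033 to 2049 against 6148 to 8062 (log2 change -2.34, SE 0.32, adjusted p = 2.79e-06). The groups did not overlap for either gene. Gbp8 fell by 1.77 (SE 0.23), and Gbp3 was the one member that rose (log2 change 0.77, SE 0.27, adjusted p = 0.0454). Gbp3 lost its call when any one CD8 library was left out. Ciita and the antigen-processing genes Psmb8, Psmb9 and Tap1 did not pass.

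Of 36 genes of mitosis, 30 rose in allogeneic cells. Many mitosis genes share CCAAT boxes, bound by NF-Y, and the cell cycle homology region (CHR), bound by the DREAM and MuvB complexes, in their promoters. The windows of 2 cyclin B genes that rose, Ccnb1 at chr13:100786487-100786736 (minus strand) and Ccnb2 at chr9:70421555-70421804 (minus strand), are shown in the same way, with matches to CCAAT and to TTTGAA (CHR) on either strand in capitals.
Ccnb1: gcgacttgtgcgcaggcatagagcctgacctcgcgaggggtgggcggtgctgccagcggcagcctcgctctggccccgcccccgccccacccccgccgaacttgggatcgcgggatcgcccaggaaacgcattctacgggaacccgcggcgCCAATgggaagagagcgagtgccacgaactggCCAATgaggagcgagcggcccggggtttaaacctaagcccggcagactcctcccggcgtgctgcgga
Ccnb2: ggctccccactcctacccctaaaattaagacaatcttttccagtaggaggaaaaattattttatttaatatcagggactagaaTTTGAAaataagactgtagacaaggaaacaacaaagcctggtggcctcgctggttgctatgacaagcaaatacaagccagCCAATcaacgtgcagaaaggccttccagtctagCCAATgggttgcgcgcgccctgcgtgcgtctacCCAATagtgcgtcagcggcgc
Ccnb1 holds 2 CCAAT boxes and Ccnb2 holds 3 with 1 CHR match. CCAAT was present in 26 of 31 windows of the mitosis list (83.9%) and 33.8% of all windows, and the CHR letters in 11 of 31 (35.5%) and 16% of all.

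No mitosis gene was lower (median log2 change 1.27). Mki67, the proliferation antigen Ki-67, stood at 7783, 10680, 9130 and 10080 scaled counts against 4140, 5014 and 2041. All 7 libraries were above the day 0 values of 1386 and 1361, and syngeneic JL027 was the lowest of them (log2 change 1.42, SE 0.26, adjusted p = 0.000195). Within JL019 alone the change was 1.00 and not called (adjusted p = 0.0612). Ccnb1, the mitotic cyclin B1, was at 9134 to 16180 against 3008 to 3670 (log2 change 1.72, SE 0.21, adjusted p = 7.41e-07). Ccnb2 was at 10520 to 14980 against 3069 to 4479 (log2 change 1.60, SE 0.21, adjusted p = 1.89e-06). Cdc25c, the phosphatase that activates cyclin B kinase, and Cenpe, a kinetochore motor, rose by 2.21 (SE 0.24) and 1.21 (SE 0.19). Cdk1, Plk1, Aurkb, Top2a, Ube2c and Cenpf did not pass. Leaving out any one CD8 library gave 27 to 30 members higher, and within JL019 and JL027 there were 13 and 20.

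Of 38 genes of DNA replication, 7 were higher (Mcm10, Pola1, Pole, Rpa2, Rrm1, Rrm2 and Dtl) and none lower, which is 18.4% against 10.4% of all genes, with a median log2 change of 0.38. The change of Mcm10, which takes part in activating the replicative helicase, was 1.20 (SE 0.33, adjusted p = 0.00966), and that of Rpa2, a single-strand binding subunit, 0.83 (SE 0.18, adjusted p = 0.000898). The count of higher members was 4 to 9 when one CD8 library was left out, with 4 reached without syngeneic JL027, and 2 within JL019.

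**Figure D3:**
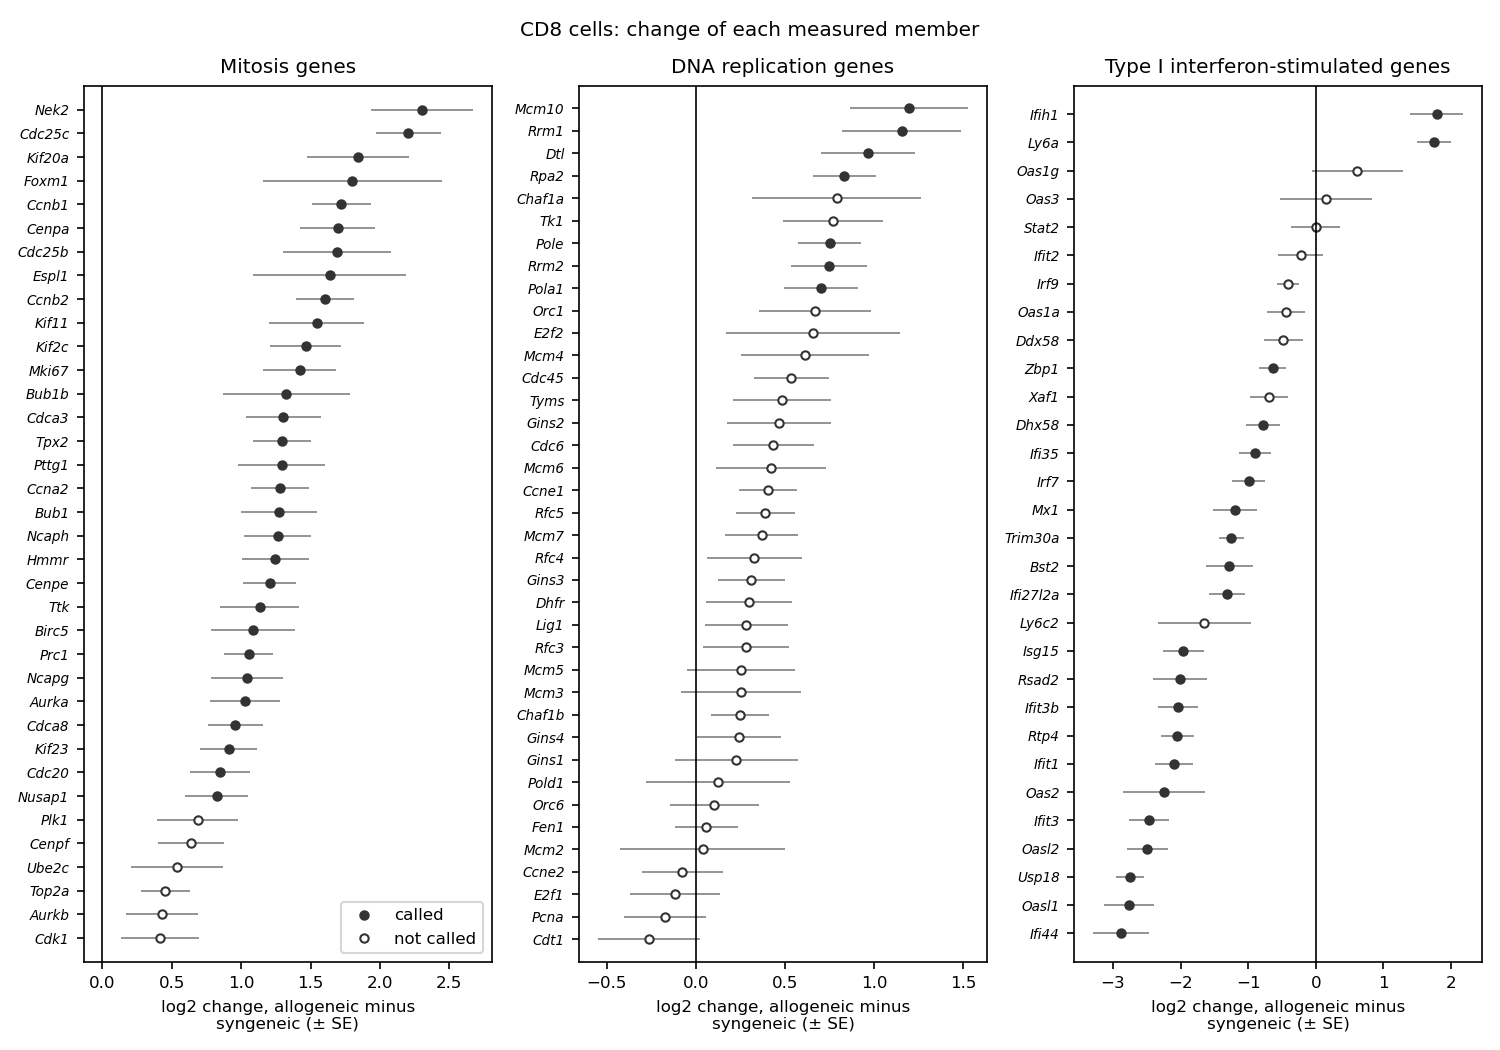
Log2 change, allogeneic minus syngeneic, of each measured member of 3 gene lists in CD8 cells; points are limma estimates, bars ± SE, filled points called and open points not called. All 36 mitosis genes lie to the right of 0, while 19 of 30 type I interferon-stimulated genes are called to the left.

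In metabolism, 10 of 25 glycolysis and hypoxia response genes were higher and 1 was lower (median log2 change 0.66). Slc2a3, the glucose transporter GLUT3, was at 5309 to 7805 against 1165 to 3090 scaled counts (log2 change 1.75, SE 0.36, adjusted p = 0.000574). Slc16a3, which exports lactate, and Egln3, a hypoxia-inducible prolyl hydroxylase, rose by 3.94 (SE 0.42) and 3.28 (SE 0.34). Pdk1, which restrains pyruvate entry into the citric acid cycle, fell by 1.41 (SE 0.34). Slc2a1 (GLUT1) overlapped and was not called (log2 change 0.66, SE 0.26, adjusted p = 0.0728). It was called without allogeneic JL027-1 (0.87, adjusted p = 0.0179), under quantile normalisation, with the replicate label as a block and with array weights. Within JL019 and JL027, 6 and 5 members were higher.

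Of 29 sterol and fatty acid synthesis genes, 6 were higher and 2 lower (27.6% called, against 21.1% of all genes). Sqle, which makes squalene epoxide, was at 1206 to 2070 against 297 to 366 (log2 change 2.33, SE 0.36, adjusted p = 1.72e-05). Among 28 amino acid and stress response genes, 5 were higher and 3 lower (28.6% called), and 2 higher and 1 lower without syngeneic JL027. Both shares are near that of all genes. Asns, asparagine synthetase, was at 2130, 3096, 5693 and 4644 against 151, 101 and 264 scaled counts, with day 0 at 1626 and 1763 (log2 change 4.51, SE 0.47, adjusted p = 3.01e-08). The growth regulator Myc was at 861 to 1841 against 5421 to 5741 (log2 change -2.10, SE 0.26, adjusted p = 5.52e-07). Of 34 oxidative phosphorylation genes, 2 were higher (Cpt1a and Acadl, both of fatty acid oxidation) and 1 lower (Ppargc1b), 8.82% against 21.1% of all genes. The call of Ppargc1b was lost without any one of 5 CD8 libraries, with a pseudocount of 0.1, under quantile normalisation, with either block and when only the groups compared were fitted, and its change within JL027 was -0.17.

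Of 26 apoptosis genes, 8 were higher and 2 lower, against 10.4% and 10.7% of all genes, so the lower count does not exceed that share. Bcl2, the survival protein of naive and memory cells, was at 1913, 2095, 1857 and 2010 against 9969, 10040 and 11640 scaled counts (log2 change -2.42, SE 0.24, adjusted p = 1.61e-08). The survival gene Bcl2a1d rose by 4.46 (SE 0.33), and the death receptor gene Fas fell by 1.02 (SE 0.23). Bcl2a1 copies are near-identical, so the split of reads between them is uncertain.

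Of 20 S100, annexin and galectin genes, 10 were higher and 3 lower. Lgals3 (galectin-3) was at 24080 to 27740 against 961 to 2610 scaled counts (log2 change 4.18, SE 0.51, adjusted p = 4.79e-07), and S100a4 and Anxa2 rose by 2.23 (SE 0.34) and 2.15 (SE 0.25). S100a8 and S100a9, abundant in neutrophils, fell by 2.49 (SE 0.86, adjusted p = 0.0399) and 2.95 (SE 0.86, adjusted p = 0.015). Of 14 myeloid markers, Lyz2, Csf1r, Tyrobp, Csf3r and Ly6g were lower as well, Lyz2 at 690.0 to 1257 in allogeneic and 10280 to 13870 in syngeneic libraries. Cd68 and Itgam were higher and 7 did not pass, and without Lyz2 the myeloid sums were 8500 to 11000 in allogeneic and 5410 to 7890 in syngeneic libraries. The part of myeloid cells in the result was not tested. S100a8 lost its call when any one of 6 of the 7 CD8 libraries was left out (limma adjusted p = 0.0567 to 0.142). Without the syngeneic library JL027 1 member was lower, and within JL027 3 members were higher.

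Treg-associated genes included Foxp3, the lineage factor of regulatory T cells. It was at 334, 453, 103 and 335 scaled counts in the allogeneic CD8 libraries, and at 0, 3.52 and 0 in the syngeneic ones. The day 0 libraries stood at 9.68 and 6.82 (log2 change 7.35, SE 0.65, adjusted p = 2.05e-09). A log2 change from values this close to 0 depends on the pseudocount. Of 12 list members, 7 were higher (Foxp3, Il2ra, Ctla4, Tnfrsf18, Nrp1, Lrrc32 and Ikzf2) and 3 lower (Gpr83, Izumo1r and Nt5e), with a median log2 change of 1.60. The call of Gpr83 was lost without any one of 3 CD8 libraries (allogeneic JL027-1, syngeneic JL019-2 or syngeneic JL027), with array weights (-0.28, limma adjusted p = 0.34), with the replicate label as a block and when only the groups compared were fitted. Nrp1 (neuropilin-1) was at 1452 to 1836 against 63.8 to 72.8 (log2 change 4.60, SE 0.20, adjusted p = 2.59e-15). Izumo1r, the folate receptor 4 of Treg, was at 56.3 to 69.4 against 289.5 to 438 (log2 change -2.37, SE 0.29, adjusted p = 6.69e-07). Of 6 CD4 T cell markers, which summed to 4310 to 6400 against 435 to 558, Zbtb7b, Cd40lg and Tnfrsf4 were higher and Izumo1r lower. Tnfrsf4, also induced on activation, carried most of the allogeneic sum, and without it the sums overlapped at 300 to 557 and 380 to 508. Cd4 itself did not pass (log2 change 0.44, SE 0.61, adjusted p = 0.666).

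In no list were several of the genes with the smallest p-values. The allogeneic CD8 libraries were higher for Ermn (ermin, 478 to 921 against 0 to 3.36 scaled counts, log2 change 8.69, SE 0.50), for the guanine nucleotide exchange factor Swap70 (1267 to 1483 against 57.1 to 85.6, log2 change 4.22, SE 0.22) and for the tubulin gene Tubb6 (3075 to 4288 against 47.8 to 99.7, log2 change 5.50, SE 0.30). Lower genes included the glycerol channel Aqp9 (125 to 180.4 against 3182 to 3748, log2 change -4.52, SE 0.24). Dapl1, high in naive T cells, was at 99.0 to 129 against 6079 to 12660 (log2 change -6.21, SE 0.37), and Samd3 at 90.1 to 201 against 7166 to 10020 (log2 change -5.72, SE 0.40). None of these 6 genes overlapped between groups, and the largest limma adjusted p among them was 2.9e-11, that of Samd3.

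The change was then set against the same change in the CD4 libraries of allogeneic and syngeneic hosts. In CD4 cells 2445 genes (14.6%) were called, 1120 higher (6.69%) and 1325 lower (7.91%), and 1817 genes were called without the CD4 syngeneic library JL019-2. The difference of the changes, CD8 minus CD4, was called for 779 genes (4.65%), 451 more positive (2.69%) and 328 more negative (1.96%) in CD8 cells, and for 665 genes without that library, 530 of them shared. Centring each library on its median shifted the median difference of all genes by -0.15, to -0.13, and gave 317 positive and 429 negative calls, so the split of directions depends on scaling. There were 52 genes called in opposite directions in CD8 and CD4 cells, 24 higher and 28 lower in CD8. The difference was called for all 52, which adds little, since opposite changes add up in it.

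Of 13 inhibitory receptors, 9 were higher in CD8 cells and 10 in CD4 cells. The change was more positive in CD8 cells for 6 of them (2.69% of all genes) and more negative for 1 (1.96%), and for 7 and 3 without CD4 syngeneic JL019-2. For Pdcd1, CD4 cells went from 580 to 2016 in syngeneic to 8619 to 10570 in allogeneic libraries (log2 change 2.88), and the CD8 change exceeded it by 4.32 (SE 0.43, limma adjusted p = 3.58e-07). Without CD4 syngeneic JL019-2 the difference was 4.90 (adjusted p = 5.42e-10). Havcr2 differed by 4.12 (SE 0.44, adjusted p = 1.15e-06), and by 4.41 without it. Gzmk did not pass in CD4 cells, at 976 to 1325 against 837 to 1296, and its difference was 5.76 (SE 0.44, adjusted p = 5.95e-09), or 5.93 without that library. Foxp3 was at 337 to 579 in CD4 allogeneic and 44.9 to 905 in CD4 syngeneic libraries, and its difference was 6.70 (SE 0.92, adjusted p = 3.55e-05), or 7.99 without it. Itga4 differed by 3.33 (SE 0.38, adjusted p = 2.87e-06), or 3.67 without it. Differences for Gzmb (-0.17, SE 0.38) and Prf1 (0.34, SE 0.40) were not called (adjusted p = 0.904 and 0.782), nor without that library (-0.07 and 0.70).

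Other genes had a more negative change in CD8 than in CD4 cells. Cxcr3 rose in CD4 cells, from 1376 to 2696 to 7825 to 8803 scaled counts (log2 change 1.99), and fell in CD8 cells, with a difference of -2.88 (SE 0.30, adjusted p = 6.01e-07). The allogeneic Cxcr3 ranges of the 2 cell types overlapped and the syngeneic ranges did not. Cxcr6 rose by 4.27 in CD4 and 1.09 in CD8 cells, a difference of -3.18 (SE 0.31, adjusted p = 3.35e-07). Gzmm differed by -5.26 (SE 0.70, adjusted p = 2.25e-05). Pim2, a survival kinase, rose by 1.76 in CD4 cells and fell by 1.92 in CD8 cells (difference -3.67, SE 0.35, adjusted p = 3.35e-07). Itm2a did likewise, by 1.35 and 2.34 (difference -3.69, SE 0.38, adjusted p = 5.02e-07). Without CD4 syngeneic JL019-2 the differences were -2.59 for Cxcr3, -2.91 for Cxcr6, -6.18 for Gzmm, -3.42 for Pim2 and -3.26 for Itm2a, each still called (largest limma adjusted p = 5.05e-07).

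Cd22, known as an inhibitory receptor of B cells, was at 1424 to 3083 in syngeneic and 265 to 430.0 in allogeneic CD8 libraries and went the other way in CD4 cells (difference -5.39, SE 0.63, adjusted p = 4.58e-06, and -5.98 without CD4 syngeneic JL019-2). In the syngeneic CD8 libraries the 12 B cell markers, Cd22 among them, summed to 3610 to 4280. Without Cd22 the other 11 summed to 1200 to 2190 in syngeneic and 822 to 1110 in allogeneic libraries. Cd22 and Bank1 were called lower and 10 markers did not pass. Ms4a1 (CD20) was at 9.29 to 18.1 and Cd79a at 5.87 to 16.4 in the syngeneic libraries. The part of B cells in the result was not tested. Tcf7 fell by 3.39 in CD8 cells and by 0.80 in CD4 cells (difference -2.59, SE 0.70, adjusted p = 0.0285), and this call was lost without CD4 syngeneic JL019-2 (-1.58, adjusted p = 0.0816). Of 36 mitosis genes, 2 were higher and 1 was lower in CD4 cells, against 6.69% and 7.91% of all genes. The difference was more positive in CD8 cells for 13 of them, against 2.69% of all genes. That count was 5 under median centring, 17 under quantile normalisation and 12 without CD4 syngeneic JL019-2. Mki67 differed by 1.45 (SE 0.37, adjusted p = 0.0201), and by 1.54 (adjusted p = 0.0212) without it. Of 18 killer lectin-like receptors, the difference was more negative in CD8 cells for 5 and more positive for 1, against 1.96% and 2.69% of all genes. Without CD4 syngeneic JL019-2 these counts were 12 and 1, against 1.73% and 2.25%. Of 30 TCR signalling genes, 6 were more negative and none more positive, and without that library 2 and none.

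**Figure D4:**
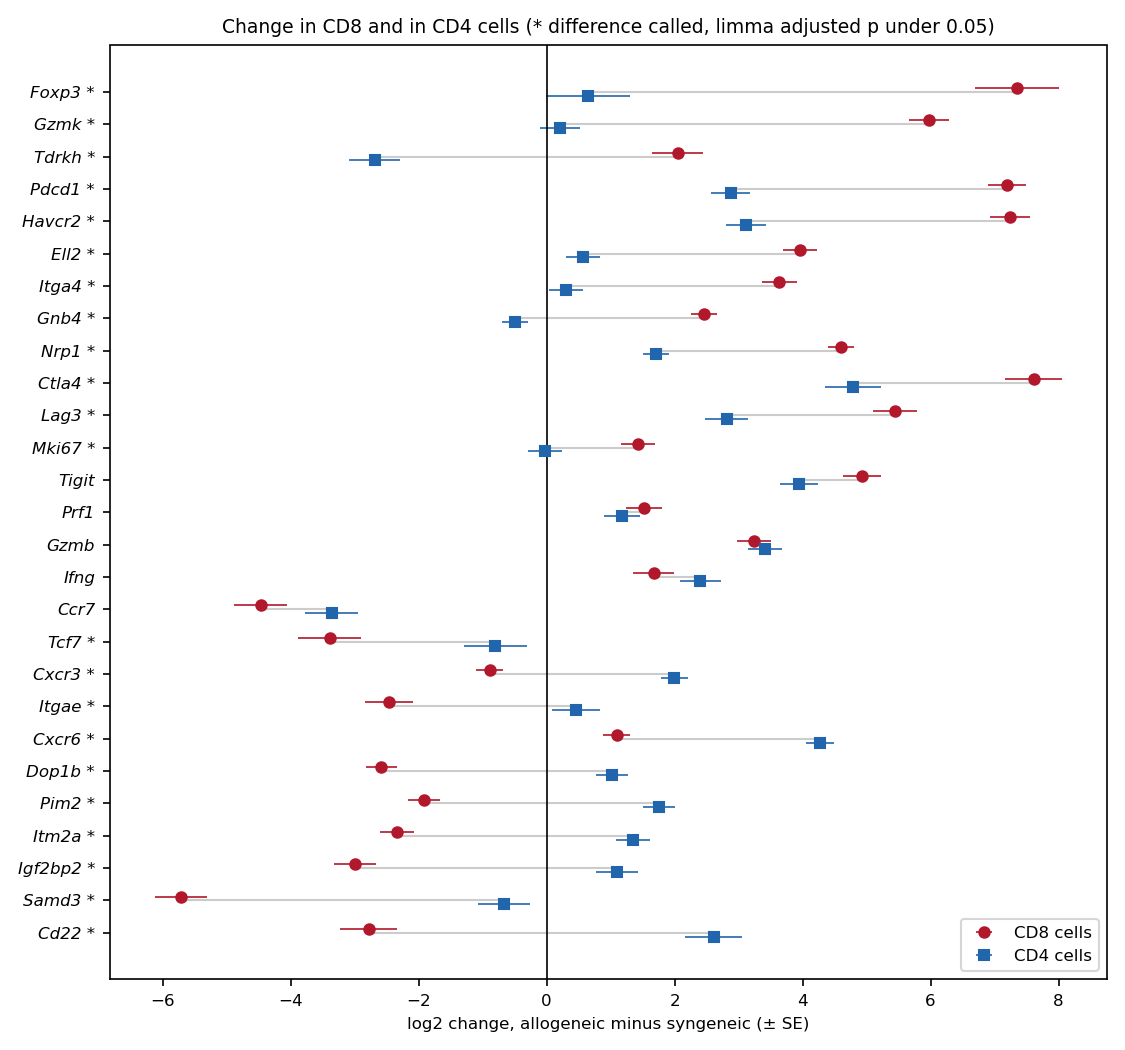
Log2 change, allogeneic minus syngeneic (limma estimate ± SE), of 27 genes in CD8 cells (circles) and CD4 cells (squares), ordered by the difference; an asterisk marks a called difference. Foxp3, Gzmk, Tdrkh and Pdcd1 differ most in the positive and Cd22, Samd3 and Igf2bp2 most in the negative direction, while Gzmb, Prf1, Ifng, Tigit and Ccr7 carry no asterisk.

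The TCR beta (TRB) repertoire of the same libraries was narrower in allogeneic hosts. A clonotype is here a distinct combination of V gene, J gene and deposited receptor sequence, and the libraries held 11487 to 47997 TRB reads. In 8194 reads drawn from each library, the allogeneic libraries held 2231, 2724, 2226 and 2148 clonotypes, and the syngeneic ones 6612, 6696 and 6156. The ranges were far apart (2332 ± 264, SD, n = 4, against 6488 ± 291, n = 3), and the day 0 libraries held 6816 and 7021. A two-sided exact permutation test gave p = 0.0571, the smallest value that 4 against 3 libraries allow. Clonality, which is 0 for an even repertoire and 1 for a single clonotype, was 0.153, 0.128, 0.153 and 0.161 against 0.0110, 0.0109 and 0.0162 (0.149 ± 0.0141, SD, n = 4, against 0.0127 ± 0.00301, n = 3, exact permutation p = 0.0571).

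Over all reads, the 10 largest TRB clonotypes took 17.2% ± 2.09 (SD, n = 4) of allogeneic and 1.28% ± 0.487 (n = 3) of syngeneic reads (exact permutation p = 0.0571). No single beta clonotype dominated: the largest took 2.63% to 3.78% in allogeneic and 0.118% to 0.341% in syngeneic libraries. For the alpha chain (TRA), the largest clonotype of allogeneic JL027-1 took 18.1% of 26644 reads (95% Wilson interval 17.6% to 18.6%), and in the other 3 allogeneic libraries 4.95% to 6.83%. With 3 measures tested, Benjamini-Hochberg adjustment leaves p at 0.0571. In both JL019 (2 against 2 libraries) and JL027 (2 against 1) all allogeneic values lay apart from all syngeneic ones, and these are too few to reach 0.05. PCR reads without molecular identifiers are not independent molecules, so intervals cover counting error only, and the number of cells behind a library is not given in the sources used here.

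**Figure D5:**
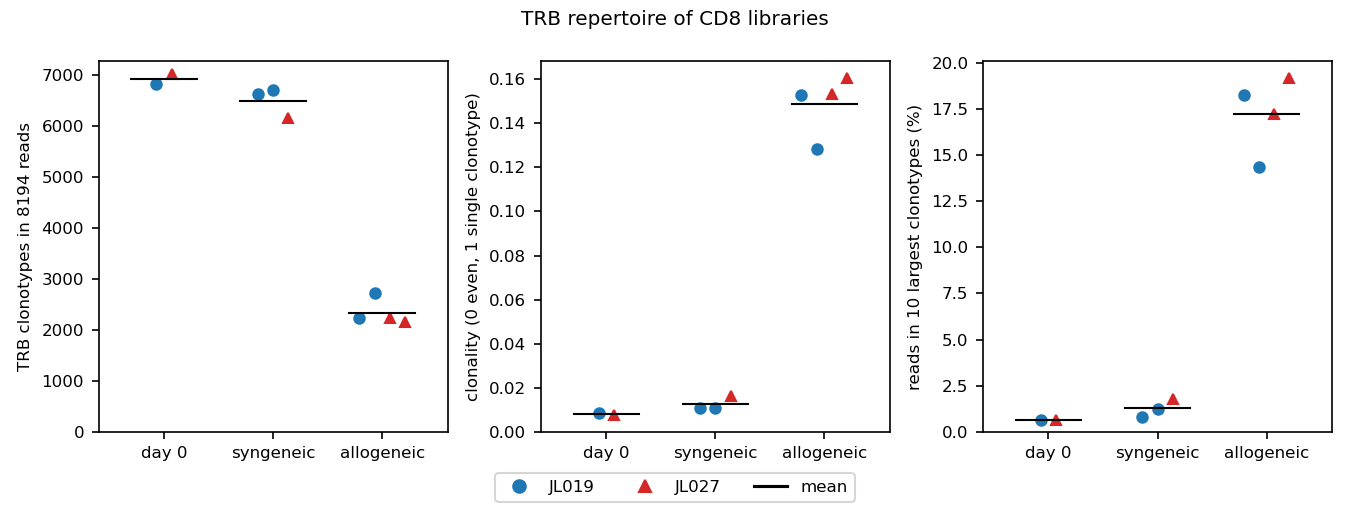
TRB clonotypes in 8194 drawn reads, clonality and the percentage of reads in the 10 largest clonotypes of each CD8 library (clonotypes and clonality as means of 20 draws, the share over all reads); circles are JL019, triangles JL027 and bars the group means. Allogeneic libraries hold 2148 to 2724 clonotypes, against 6156 to 6696 in syngeneic libraries.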

How the data were processed

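Bulk RNA was measured in sorted donor T cells with SMARTer v4 full-length cDNA and Nextera XT libraries, and TCR chains by nested PCR from the same cDNA, per the labels' protocols. The submitters' processing notes name FastQC 0.11.7, kallisto, DESeq2 and the mouse builds GRCm38 and mm10. The deposited RNA signal holds 16741 genes in 31 libraries. Its values are not whole (0.0469% of nonzero values, tolerance 1e-06), so reads were not recovered and no count model was used. The authors deposited TCR tables with a read count and a percent per clonotype.

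RNA values were tested as log2(value + 1) with limma 3.58.1 (R 4.3.3), using group means over all 31 libraries, a trended robust spread and Benjamini-Hochberg adjustment over all genes (threshold 0.05). The change in CD8 minus that in CD4 cells was tested in the same fit. TCR reads were drawn to equal depth 20 times (numpy 2.4.6) and tested by exact permutation. Scripts were tested on simulated data. Genes named are up to 4 called members per list and direction with the lowest p, preset members, the lowest-p called genes outside the lists, and those of the CD8 against CD4 difference. Members and lists were chosen with earlier results of these data known. Alternatives were another filter, pseudocount, scaling, blocks, array weights, a level covariate, fewer groups, and libraries left out. Promoter windows are from RefSeq (GRCm38.p6). Results for some genes are not reported here.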

Additional observations from a re-analysis of the deposited data

Results flagged for a closer look

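The allogeneic change differed between CD8 and CD4 cells, by the limma test of the difference at an adjusted p under 0.05, for the 22 genes listed here (log2, CD8 minus CD4). These are preset genes and those with the lowest p in that comparison, and other genes named in the text, such as Gzmm (-5.26), were called as well. It was more positive in CD8 cells for Foxp3 (6.70), Gzmk (5.76), Tdrkh (4.73), Pdcd1 (4.32), Havcr2 (4.12), Ell2 (3.38), Itga4 (3.33), Gnb4 (2.95), Nrp1 (2.88), Ctla4 (2.83), Lag3 (2.64) and Mki67 (1.45). It was more negative for Cd22 (-5.39), Samd3 (-5.05), Igf2bp2 (-4.09), Itm2a (-3.69), Pim2 (-3.67), Dop1b (-3.60), Cxcr6 (-3.18), Itgae (-2.92), Cxcr3 (-2.88) and Tcf7 (-2.59). Without the CD4 syngeneic library JL019-2 the call of Tcf7 was lost.

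One allogeneic CD8 library stood far from the other 3 in 20 of 173 values tested by Dixon's criterion, where chance gives about 1 in 20. Library JL027-1 was the one apart in most of them. It was highest for Cxcr6 (36820 scaled counts, others 22740 to 24420), Klrk1 (18420), Klrc1 (30520), Sc5d (2308), Anxa4 (1802) and Car5b (2433). It was lowest for Prdm1 (2326), Eomes (856.8), Dusp5 (4200), Lat (6927), Mvd (191.9) and Cpt1a (3316). Its largest TRA clonotype took 18.094% of reads, against 4.95% to 6.827% in the other 3. Library JL027-2 was lowest for Usp18 (580.3) and highest for H1f0 (3805). Library JL019-1 was highest for Ccr7 (560.8) and Dop1b (1030, others 511.1 to 573.3). Library JL019-2 was lowest for Ctla4 (11920) and Pdk1 (1176), and held the most TRB clonotypes (2724.4, others 2147.5 to 2231.1).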

How the results depend on the processing

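Of the single-gene values recomputed, 3569 kept their direction and side of the threshold, 157 lost their call, 15 gained one and 3 reversed. The reversals were Cd4 at -0.40 with array weights and -0.19 within JL019, and Il7r at -0.42 within JL027. None of these 3 had been called. The 3524 CD8 calls became 10308 with array weights, whose estimation stopped before convergence, 1380 within JL019 and 1537 within JL027. Leaving out 1 library gave 2372 (without syngeneic JL027) to 4189 (without CD4 syngeneic JL019-2, chosen after seeing the data). The 779 calls of the CD8 against CD4 difference became 4089 with array weights, 1512 with the mean level as a covariate and 494 when only the groups compared were fitted. With 1 library left out they were 535 to 991. Quantile normalisation gave 1588 higher and 1822 lower CD8 genes, and 325 and 329 for the difference. The cause of these shifts was not tested.

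The label prefix as a replicate block gave 3529 CD8 calls and 801 for the difference. The replicate label as a block gave 2682 and 851. Same-numbered libraries share an experiment prefix, but no label says that they share a host or batch beyond it. Their deviations correlated at 0.033 for JL019-1, 0.147 for JL019-2 and 0.176 for the JL027 prefix. TCR differences without 1 library were 0.132 to 0.1428 in clonality, -4321 to -4051 clonotypes and 15.33 to 16.94 percentage points in the 10 largest. With TRA in place of TRB they were 0.1858, -2426 and 25.31. The clonotype difference of -4155 became -8223 without drawing to equal depth and -1350 with clonotypes of at least 2 reads only. With 4 against 3 libraries or fewer, these permutation tests cannot reach 0.05. RNA depth is unknown, so no floor for low genes can be given.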
